A study of Mus musculus with 8 samples.

Results

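The Wnt target genes described here are 10 mouse genes that serve as readouts of the canonical Wnt pathway: Axin2, Lef1, Tcf7, Lgr5, Nkd1, Sox9, Ccn4, Myc, Rnf43 and Sp5. Every probe annotated to exactly 1 of these symbols was taken, which gave 18 of the 45037 probes tested and 9 genes, since no probe was matched to Tcf7 alone and that gene was not analysed here. Expression was measured on Affymetrix mouse arrays in 8 mammary tumours of female mice of genotype MMTV-PyMT, 1 array a sample, and the labels give FVB/N-Tg(MMTV-PyVT)634Mul/J as the strain. Vehicle was given to the mice of 4 samples, and SKI-606 (bosutinib, which blocks kinases of the Src and Abl families) to the mice of the other 4 by oral gavage at 100 mg/kg. The title of the series asks about tumour differentiation under the drug. All samples therefore carry the same transgene, in which the mouse mammary tumour virus promoter drives the polyoma virus middle T antigen in mammary epithelium. The sources used here do not give the age of the mice or the length of treatment. RNA was taken from each mouse per the labels, which do not list the animals, so the p-values measure the spread between these samples, which may in part be technical.

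In canonical Wnt signalling, secreted Wnt proteins bind Frizzled receptors and the co-receptors Lrp5 and Lrp6, which stops a destruction complex built on Axin and Apc from degrading beta-catenin. Beta-catenin then enters the nucleus and joins factors of the Tcf and Lef family on DNA. Several of the genes they switch on restrain the pathway in turn, among them Axin2, Nkd1 and Rnf43, and Axin2 is widely used as its readout. In the mammary gland the pathway acts on basal and stem cells, and in skin it drives formation of the hair follicle.

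The short words CTTTGA and CTTTGT are the core of the site that Tcf and Lef proteins bind. They were searched on both strands in the 250 bases before RefSeq start sites (GRCm38.p6), as these members are named for that regulation. Windows were found for 5 of the 9 measured genes, 9 windows in all, and 2 windows held at least 1 of the words, while 27.6% of all 32851 windows did. The Sp5 window held 4 words and 1 window of Lef1 held 3, and 0.776% of all windows held 3 or more. The other 3 windows of Lef1 and those of Nkd1, Rnf43 and Axin2 held none of these words. Of these, the Nkd1 and Axin2 windows, 1 of Rnf43 and 1 of Lef1 lie inside the span of their gene. The other 2 of Lef1 overlap each other. The 2 windows that held words are shown for them. That of Axin2 is shown because Axin2 and Sp5, which was dim, had their highest signals in the same samples below. Each is written 5′ to 3′ in the direction of the gene, and capitals mark the words, as CTTTGA or CTTTGT or as their reverse complements TCAAAG and ACAAAG.
Sp5, chr2:70474673-70474922, + strand, directly before the start of the gene: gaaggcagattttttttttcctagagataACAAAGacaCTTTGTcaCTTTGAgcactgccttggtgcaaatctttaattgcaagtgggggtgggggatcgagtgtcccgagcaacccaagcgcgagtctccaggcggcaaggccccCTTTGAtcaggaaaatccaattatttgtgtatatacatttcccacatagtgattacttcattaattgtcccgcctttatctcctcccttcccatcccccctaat
Lef1, chr3:131156044-131156293, + strand, inside the span of the gene before a later start site: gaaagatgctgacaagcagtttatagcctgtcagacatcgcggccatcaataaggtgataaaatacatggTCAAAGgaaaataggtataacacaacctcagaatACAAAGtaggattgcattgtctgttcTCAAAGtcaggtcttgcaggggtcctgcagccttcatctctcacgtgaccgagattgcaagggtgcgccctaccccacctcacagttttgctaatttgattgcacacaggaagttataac
Axin2, chr11:108920099-108920348, + strand, inside the span of the gene as RefSeq gives it: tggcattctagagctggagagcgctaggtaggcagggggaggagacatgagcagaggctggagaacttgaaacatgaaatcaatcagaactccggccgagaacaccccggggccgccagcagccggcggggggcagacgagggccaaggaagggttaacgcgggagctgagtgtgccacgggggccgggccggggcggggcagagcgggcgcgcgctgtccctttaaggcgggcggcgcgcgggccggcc
In Sp5 the words began 221, 212, 204 and 104 bases before the start site, the first of them on the opposite strand. In Lef1 they began 180, 146 and 120 bases before it, all on the opposite strand.

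In tumours from SKI-606 mice, Sox9 and Ccn4 had higher signals than in all vehicle tumours by their brightest probes. Axin2 was high in 3 tumours that came from both groups, and Myc and Rnf43 differed by less than the spread between samples. No Wnt target probe passed the test. With limma and Benjamini-Hochberg adjustment over all 45037 probes 0 of 18 were called, as were 0% of all probes, and the smallest adjusted p among the members was 0.515. At an unadjusted p under 0.05 in limma, 6 of the 18 probes, from 5 genes, were higher in SKI-606 samples and 0 were lower, against 4.59% higher and 3.78% lower of all probes. Of the 18 probes, 13 had a log2 difference above 0, against 46.3% of all probes, and their median was 0.26, against -0.021 over all probes. Probes annotated to the same gene cannot be counted as independent.

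Signals are quantile-normalized and on the scale of the arrays. The recovered signals had a trimmed mean of about 100, taken after the lowest and highest values of each array were left out. Differences are SKI-606 minus vehicle on the scale of log2(signal + 16), ± SE with n = 4 a group, which understates changes of dim probes. A probe is called dim where its mean recovered signal over the 8 arrays was under 32, which held for 12 of the 18. The probes that were not dim belonged to 5 genes: Axin2, Sox9 (2 probes), Ccn4, Myc and Rnf43. Over all probes, SKI-606 samples 1 and 4 stood apart on the first principal component (34% of the variance) and vehicle sample 3 on the second (17.9%), so differences are also given without these 3 samples, with 3 vehicle against 2 SKI-606 samples. The 8 luminal epithelial genes, such as the keratin genes Krt8 and Krt18, summed to between 23301 and 28504 in the 8 samples. Some genes of that list varied more than the sum, as Krt19 read 1006.8 to 4151.2 and Cldn4 101.5 to 657.9. Sums of markers of other tissue varied widely. The 6 skeletal muscle genes summed to 17378 in vehicle sample 1 and 11909 in SKI-606 sample 2, and to at most 5316 elsewhere. Both of these samples remain in the comparison without the 3 samples. Squamous and hair follicle genes, given below, also varied.

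**Figure D1:**
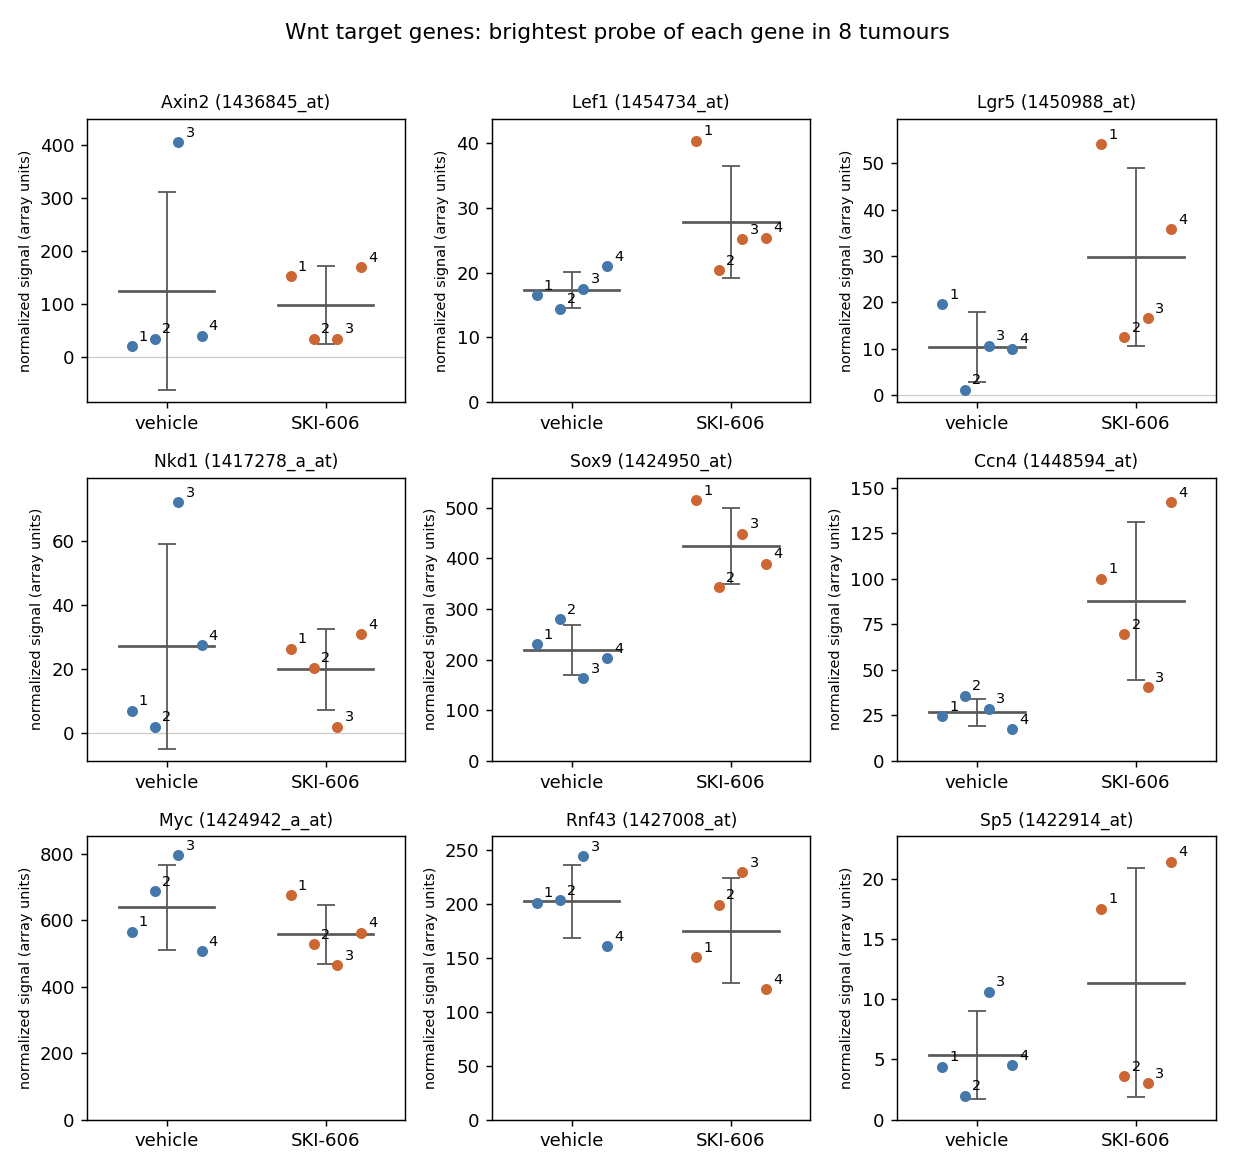
Normalized signal (array units, linear axes) of the brightest probe of each of 9 Wnt target genes in 4 vehicle (blue) and 4 SKI-606 (orange) tumours. Each point is a sample with its replicate number, the bar is the group mean and the whisker is 1 SD. The groups do not overlap for Sox9 and Ccn4, and the highest Axin2 signal, 405.5, is in vehicle sample 3.

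Sox9 encodes a transcription factor of progenitor cells in the mammary gland, the hair follicle and cartilage. Its brightest probe (1424950_at) read 230.2, 279.5, 163.8 and 202.9 in the vehicle tumours 1 to 4 and 515.4, 343.4, 448.6 and 389.6 in the SKI-606 tumours 1 to 4. All SKI-606 tumours lay above all vehicle tumours, a separation that 1.83% of all probes showed in this direction. The group means were 219 ± 48.6 and 424 ± 74.5 (SD, n = 4 each), a log2 difference of 0.91 ± 0.19 with a limma p of 0.000849 and an adjusted p of 0.515. Without the 3 samples that stood apart the difference was 0.70 and the groups still did not overlap. Leaving out 1 sample at a time gave 0.79 to 1.03.

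The other Sox9 probes showed smaller differences. Probe 1451538_at, designed on the same accession, read 60.4, 74.6, 53.6 and 69.6 in vehicle samples and 134.1, 86.6, 101.9 and 58.0 in SKI-606 samples. SKI-606 sample 4, high by the first probe, lay within the vehicle range here, and the difference was 0.43 ± 0.21 (limma adjusted p of 0.627). The dim probe 1433889_at lay between 7.0 and 16.5 in all samples, with a difference of 0.013 ± 0.15. The 3 probes therefore differ in the size they give for the same gene.

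Ccn4 (Wisp1) encodes a secreted matricellular protein made largely by fibroblast-like cells and first described as Wnt-induced. Probe 1448594_at read 24.6, 35.8, 28.6 and 17.5 in the vehicle tumours 1 to 4 and 100.1, 69.6, 40.4 and 142.1 in the SKI-606 tumours 1 to 4. The groups did not overlap, although SKI-606 sample 3 lay close to vehicle sample 2. The means were 26.6 ± 7.63 and 88.0 ± 43.5 (SD, n = 4 each), and the log2 difference of 1.20 ± 0.30 was the widest of the 18 probes (limma p of 0.00246, adjusted p of 0.515). It was 0.75 without the 3 samples that stood apart, and 0.97 to 1.47 with 1 sample left out at a time. The second probe, 1448593_at, is dim and read at most 3.4 in vehicle samples. In SKI-606 samples it read 24.6, 14.4, 2.0 and 21.4, so sample 3 lay with the vehicle tumours, and the difference was 0.70 ± 0.24 (limma p of 0.0162).

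Fibroblast genes had their highest summed signals in the same tumours as Ccn4. All 10 measured fibroblast markers, such as the collagen gene Col1a1 and the receptor gene Pdgfra, had a difference above 0, and their summed signal was 12777 to 15883 in vehicle samples and 29439, 21926, 16723 and 29695 in the SKI-606 tumours 1 to 4. The SKI-606 tumours had the same order in both measures, sample 4 first, then 1, 2 and 3, while the vehicle tumours did not. Not every marker followed the sum. In SKI-606 sample 1, Lum and Fap read 235.8 and 39.4, within the vehicle ranges of 160.5 to 535.8 and 32.4 to 76.4. Endothelial genes, 8 of 8 above 0, also had their highest sums in SKI-606 samples 1 and 4. Those were 1500 and 1319, against 434 to 802 in vehicle samples. In bulk tissue more cells of a type and more RNA per cell cannot be told apart. The part of fibroblast or endothelial content in the Ccn4 and Sox9 differences was not tested.

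Axin2 encodes a scaffold of the destruction complex and feeds back on the pathway. Its brighter probe (1436845_at) read 20.6, 34.8, 405.5 and 40.5 in the vehicle tumours 1 to 4 and 152.9, 35.0, 35.0 and 170.1 in the SKI-606 tumours 1 to 4. Vehicle sample 3 was the highest of all, SKI-606 samples 4 and 1 came next, and the other 5 lay at 40.5 or below in both groups. The group difference was 0.22 ± 0.77 with a 95% confidence interval from -1.50 to 1.94 (limma adjusted p of 0.959). The dim probe 1421341_at had the same 3 samples on top, 52.5 in vehicle sample 3 and 21.5 and 17.5 in SKI-606 samples 1 and 4, against at most 9.1 in the rest, and a difference of 0.0082 ± 0.41.

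The 3 tumours with the highest Axin2 signals were also those with the highest summed signals of hair follicle genes, such as the hair keratin genes Krt31 and Krt81. The 15 measured genes of that list summed to 3477 in vehicle sample 3, 11262 in SKI-606 sample 1 and 13936 in SKI-606 sample 4, and to between 103 and 255 in the other 5. The order within the 3 was not shared, as vehicle sample 3 had the highest Axin2 signal and the lowest hair follicle sum of them. Squamous genes, 13 measured, summed to 14534, 24295 and 28232 in these 3 samples and to at most 2747 in the rest. Of the 13 genes 10 had a difference above 0, and Ivl, Lor and Trp63 went the other way, at -0.28, -0.37 and -0.39. In SKI-606 sample 1, Ivl and Trp63 read 2.4 and 78.2, against 70.1 and 210.8 in vehicle sample 3. The part of hair follicle or squamous cells in the Axin2 values was not tested.

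**Figure D2:**
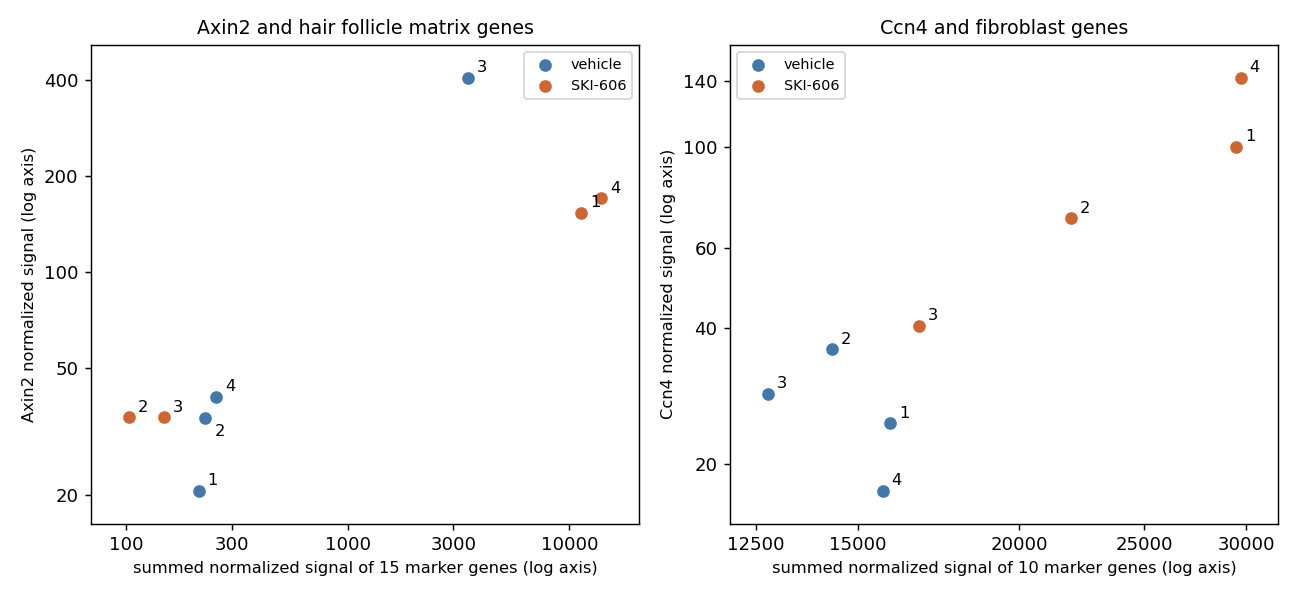
Left, normalized signal of Axin2 (probe 1436845_at) against the summed normalized signal of 15 hair follicle genes, which the panel title calls matrix genes. Right, Ccn4 (probe 1448594_at) against the summed normalized signal of 10 fibroblast genes. Both are on log axes, for vehicle (blue) and SKI-606 (orange) tumours with replicate numbers. Vehicle sample 3 and SKI-606 samples 1 and 4 are at the upper right of the left panel, with Axin2 signals of 405.5, 152.9 and 170.1, and the other 5 are at the lower left.

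Nkd1, an inhibitor of Dishevelled and a feedback target, had 4 dim probes that did not give 1 direction. Probe 1429506_at read 65.8 in vehicle sample 3 and 10.2 to 12.4 in the other vehicle samples, and 26.4, 12.4, 12.4 and 18.2 in the SKI-606 tumours 1 to 4. Vehicle sample 3 and SKI-606 samples 1 and 4 were thus the highest by this probe, as for Axin2, and the group difference was -0.13 ± 0.35. Probe 1417278_a_at also had its highest value, 72.2, in vehicle sample 3, with 7.0, 2.0 and 27.4 in vehicle samples 1, 2 and 4 and 26.4, 20.4, 2.0 and 30.9 in SKI-606 samples, a difference of -0.071 ± 0.49. Probe 1429507_at stood at -0.42 ± 0.27, and its highest value, 40.6, was again in vehicle sample 3.

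The fourth Nkd1 probe, 1440446_at, read 2.4, 13.4, 10.1 and 1.6 in vehicle and 21.5, 14.4, 14.4 and 18.9 in SKI-606 samples, with no overlap. Its difference was 0.57 ± 0.19 (limma p of 0.0155, adjusted p of 0.559). The recovered signals before any scaling overlapped, with 2 to 15 in vehicle and 13 to 20 in SKI-606 samples, so the separation of this dim probe depends on the scaling. It was 1 of 3 member probes with all SKI-606 values above all vehicle values, beside those of Sox9 and Ccn4, and 0 had them all below, against 1.83% and 1.87% of all probes.

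Sp5, a zinc finger factor and direct Wnt target whose window with 4 words is printed above, was dim. It read 4.4, 2.0, 10.6 and 4.5 in the vehicle tumours 1 to 4 and 17.5, 3.6, 3.0 and 21.4 in the SKI-606 tumours 1 to 4. SKI-606 samples 4 and 1 and vehicle sample 3 were again the 3 highest, though all values were near the floor. The difference of 0.31 ± 0.25 (limma adjusted p of 0.769) was -0.021 without those 3 samples.

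Lef1, a Tcf family factor of the hair follicle, T cells and mesenchyme that acts with beta-catenin and is itself a Wnt target, was dim by both probes. Probe 1454734_at read 16.5, 14.4, 17.5 and 21.0 in vehicle and 40.4, 20.4, 25.2 and 25.4 in SKI-606 samples. The groups overlapped by vehicle sample 4 and SKI-606 sample 2 alone, and they did not overlap when arrays were only scaled to their medians. The difference was 0.38 ± 0.16 (limma p of 0.0430, adjusted p of 0.587), and it was 0.22 without the 3 samples that stood apart. Lef1 was not high in vehicle sample 3, unlike Axin2. Probe 1421299_a_at lay between 1.2 and 12.4 in all samples, with a difference of 0.21 ± 0.22. T cell markers, 8 of 9 of them dim, had a summed signal of 96 to 172 in vehicle and 145 to 319 in SKI-606 samples, with 8 of 9 above 0, and their part in the Lef1 values was not tested.

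Lgr5, a receptor for R-spondins that marks stem cells of the intestine and of some basal mammary cells, was dim as well. Probe 1450988_at read 19.6, 1.1, 10.6 and 10 in vehicle and 54.1, 12.4, 16.5 and 35.7 in SKI-606 samples. SKI-606 samples 1 and 4 were the highest and the other SKI-606 samples lay within the vehicle range. The difference was 0.75 ± 0.32 (limma p of 0.0410, adjusted p of 0.585) and was 0.27 without the 3 samples. By probe 1444519_at it was 0.31 ± 0.25, and SKI-606 sample 1, the highest by the first probe, had the lowest value of all, 1.1. The 2 probes thus rank the samples differently. The 8 basal and myoepithelial markers, which share Krt5, Krt14 and Trp63 with the squamous list, had sums between 2282 and 5588 under vehicle. SKI-606 samples 1 to 4 had 13454, 2013, 2425 and 13105, so samples 1 and 4 had the highest sums there too. Of the 8 markers 7 had a difference above 0. Trp63 went the other way, at -0.39. It read 78.2 and 191.4 in SKI-606 samples 1 and 4 and 90.9 to 210.8 in vehicle samples. The part of basal and myoepithelial cells in the Lgr5 values was not tested.

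Myc, a growth-promoting transcription factor with many inputs besides Wnt, read 564.7, 686.5, 794.9 and 506.6 in vehicle and 674.1, 527.9, 464.4 and 562.2 in SKI-606 samples. The groups overlapped widely, with means of 638 ± 129 and 557 ± 87.9 (SD, n = 4 each) and a difference of -0.18 ± 0.18 (95% confidence interval -0.59 to 0.22, limma adjusted p of 0.814). Rnf43, a ubiquitin ligase that removes Frizzled receptors from the cell surface, read 200.6, 203.1, 243.6 and 160.8 in vehicle and 150.6, 198.8, 229.1 and 120.9 in SKI-606 samples. SKI-606 samples 4 and 1 were the lowest of all. The difference was -0.21 ± 0.21 (95% confidence interval -0.68 to 0.25, limma adjusted p of 0.808), and without the 3 samples it was 0.18. When arrays were only scaled to their medians, the Myc and Rnf43 differences were 0.074 and 0.053. That scaling also moved the median of all genes from -0.0189 to 0.0977, so both genes stayed below it, though not below the median of all probes, 0.0396.

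**Figure D3:**
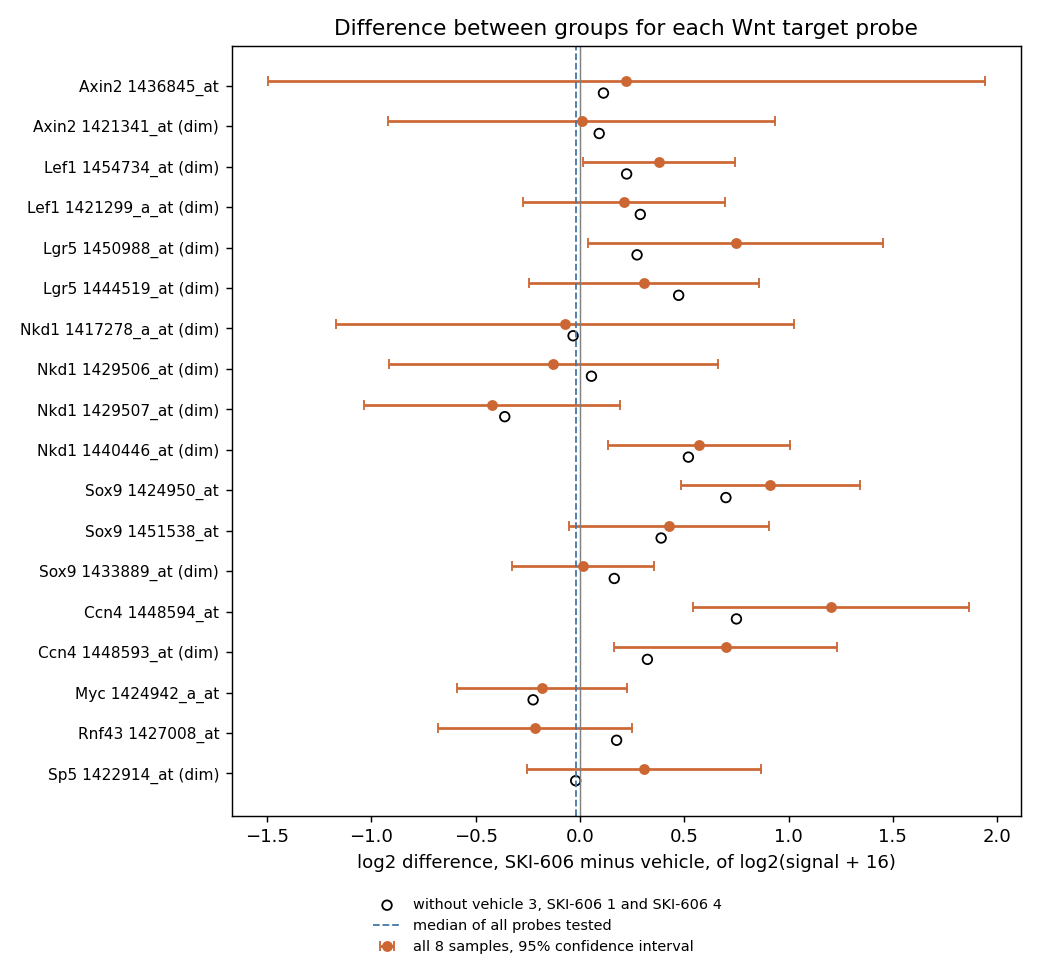
Log2 difference, SKI-606 minus vehicle, of each of 18 Wnt target probes with its 95% confidence interval (orange), and the difference without vehicle sample 3 and SKI-606 samples 1 and 4 (open circles). The dashed line is the median of all probes tested, -0.021, and 6 intervals lie wholly above 0: 2 for Ccn4 and 1 each for Sox9, Nkd1, Lgr5 and Lef1.

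Across samples, vehicle sample 3 and SKI-606 sample 1 each had the highest value of 7 of the 18 probes, SKI-606 sample 4 of 2, SKI-606 samples 2 and 3 of 1 each, and vehicle samples 1, 2 and 4 of 0. The mean log2 value over the 18 probes was 5.47, 5.36, 5.94 and 5.39 in the vehicle tumours 1 to 4 and 6.08, 5.64, 5.61 and 5.94 in the SKI-606 tumours 1 to 4. The 3 samples that stood apart over all probes therefore had the highest values here, and the others were closer together, with SKI-606 samples 2 and 3 above vehicle samples 1, 2 and 4. Without the 3 samples 14 of 18 probes lay above 0, the median was 0.20, and 2 had an unadjusted p under 0.05 in limma, those of Sox9 and Ccn4, against 3.96% of all probes. In that comparison 5 probes did not overlap between groups, against 7.8% of all probes with SKI-606 above vehicle.

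The rest of the pathway was read from 7 lists by 1 probe a gene, the one of highest mean signal. Of 98 genes 95 were measured, 30 of them dim, and 0 were called by limma, as were 0% of 18193 genes. At an unadjusted p under 0.05, 7 were higher and 3 lower, against 6.09% and 4.32% of all genes. Differences above 0 were found in 57 of 95, against 47.1% of all genes. The median was 0.11 and it was -0.0215 without the 3 samples that stood apart, where 46 of 95 lay above 0.

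Among Wnt ligands and their secretion factors 15 of 21 lay above 0, with a median of 0.18. Wnt5b, a ligand mostly tied to non-canonical signalling, read 214.0, 347.2, 130.1 and 270.8 in vehicle and 610.0, 424.7, 521.1 and 582.5 in SKI-606 samples. The groups did not overlap, and the difference was 1.17 ± 0.27 (limma p of 0.00149, adjusted p of 0.515) and 0.75 without the 3 samples. Its other probe gave 0.78. Wnt9a stood at 0.93 ± 0.30, also without overlap, and at 0.53 without the 3 samples, but its other probe gave -0.11. These 2 and Frzb were the 3 of 95 genes with SKI-606 values all above, against 2.4% of all genes.

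The receptors were mixed, with 9 of 15 above 0 and a median of 0.21 that was -0.0715 without the 3 samples. Fzd1, a Frizzled receptor, stood at 0.83 ± 0.31 (limma p of 0.0233, adjusted p of 0.564), and at 0.25 without the 3 samples. Its highest signals, 820.6 and 1251.1, were in SKI-606 samples 1 and 4, and its other probe gave 0.62. The R-spondins with Lgr4 and Lgr6, which hold receptors at the cell surface, had 3 of 6 above 0 and a median of -0.0225. The secreted antagonists had 9 of 12 above 0 with a median of 0.31, which was -0.18 without the 3 samples. Frzb, which binds Wnt proteins outside the cell, read at most 2.5 in vehicle and 63.2, 13.4, 29.8 and 46.4 in the SKI-606 tumours 1 to 4. This probe was dim, its difference was 1.53 ± 0.27 (limma adjusted p of 0.515) and 1.04 without the 3 samples, and its other probe gave 0.61. Dkk1 and Sost, which block Lrp co-receptors, stood at -0.47 ± 0.19 and -0.45 ± 0.19, and both were dim, with vehicle means of 11.4 and 10.9. Their other probes gave 0.11 and -0.0025.

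The destruction complex with beta-catenin and Dishevelled had 3 of 12 above 0 and 9 below, with a median of -0.074. It was 0.12 when arrays were only scaled to their medians, where the median of all genes was 0.0977. Only 1 of these genes, Apc2, a dim relative of Apc, had an unadjusted p under 0.05, at -0.68 ± 0.30, and its 3 other probes lay between -0.25 and 0.091. The nuclear partners had 6 of 11 above 0 and a median of 0.0074, with the co-activator gene Bcl9l at 0.38 ± 0.16 and its other probes below 0, from -0.46 to -0.14. The other Wnt targets had 12 of 18 above 0 with a median of 0.21, which was -0.028 without the 3 samples. Ccn5, a relative of Ccn4, stood at 1.43 ± 0.40 (limma p of 0.00536), and read 175.6, 102.0, 92.2 and 312.9 in vehicle and 657.6, 393.6, 243.0 and 582.5 in SKI-606 samples. Without the 3 samples it was 0.74. Nkd2, a relative of Nkd1, stood at 1.39 ± 0.59, with 577.4 and 848.2 in SKI-606 samples 1 and 4, 255.8 in vehicle sample 3 and at most 168.2 elsewhere. It was thus highest in the 3 tumours that also led for Axin2, and its difference was 0.71 without them. Its limma p was 0.0405 and its adjusted p 0.585. The other Nkd2 probes lay between 0.33 and 1.38.

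**Figure D4:**
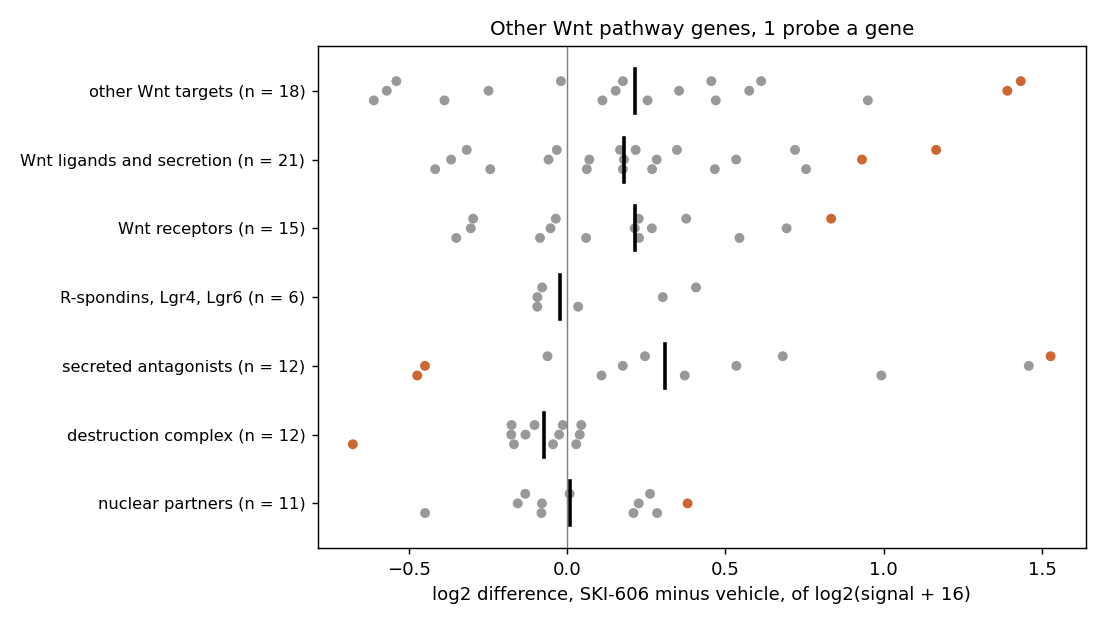
Log2 differences, SKI-606 minus vehicle, of 95 other Wnt pathway genes in 7 lists, 1 point a gene, with the list median as a black line. Orange points have an unadjusted p under 0.05 in limma, 7 above 0 and 3 below, and Apc2 of the destruction complex lies at -0.68.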

How the data were processed

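The deposited values are linear ratios in 1 table of 8 arrays. Their software and normalization were not given in the sources used here. The scale was inferred from the table itself, where 26196 of 45101 probes had a median of 1 over the arrays. The deposited ratios fit signals divided by the array median and then by the probe median, with a constant divisor where that median signal was under 10 and a lowest value of 0.01. Whole-number signals were recovered on this basis and gave back 100.0% of probes. The recovered array medians were 15 to 23. The number of arrays limits the precision.

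Signals were quantile normalized, 16 was added and log2 taken. Groups were compared two-sided in R 4.3.3 by limma 3.58.1, using lmFit and eBayes, over 45037 probes (64 control probes left out). Calls needed a Benjamini-Hochberg adjusted p under 0.05. The recovery and the test were checked on simulated data. Probes were named by the platform annotation, with 1 symbol for 34945, several for 932 and 9160 unnamed here. All probes of the members were named, and of each other list up to 3 genes of smallest p, with values given for those under 0.05. Promoters came from RefSeq (GRCm38.p6). Results of the luminal, fibroblast, hair follicle, squamous, T cell and basal marker lists stand in the report. The endothelial list summed to 434 to 802 in vehicle and 694 to 1500 in SKI-606 samples, the skeletal muscle list to 98 to 17378 and 57 to 11909, and the cycling list to 5410 to 6700 and 2189 to 6465. Of the 9 measured cycling genes 0 had a difference above 0, and their median was -0.77. Their lowest sums, 2189 and 2726, were in SKI-606 samples 1 and 4. The hair follicle list shares Msx2 with the other Wnt targets. The members and lists were chosen with earlier results of these data known. Deviations of same-numbered samples had correlations of 0.02, 0.11, -0.15 and -0.11, so no pairing by number was visible in these values. Alternatives were the pseudocount, the scaling, the deposited ratios, dim probes left out, array weights, a replicate block, samples left out, a threshold of 0.1 and 1 probe a gene.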

Additional observations from a re-analysis of the deposited data

Results flagged for a closer look

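On the log2(signal + 16) scale, of 36 groups of 4 values (18 probes in 2 groups), 2 had a sample whose gap to the nearest other, as a share of the group's range, passed Dixon's 95% critical value for 4 samples, and chance flags about 1 in 20 groups. For Nkd1 (1429506_at), vehicle sample 3 lay far above the other vehicle samples with a signal of 65.8 and a share of 0.931. For Lef1 (1421299_a_at), SKI-606 sample 4 lay far below the other SKI-606 samples with a signal of 1.2 and a share of 0.928, on a probe near the floor. On the linear signals, a scale added after the data were seen, 4 groups passed: these 2, and both Axin2 probes in vehicle sample 3, with shares of 0.948 and 0.844.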

How the results depend on the processing

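Under every setting tried, 0 of the 18 Wnt target probes and 0 of all probes were called by limma at an adjusted p under 0.05, with 1784 to 4917 of 45037 probes at an unadjusted p under 0.05 where all were tested (3770 as reported). The smallest adjusted p of a Wnt target probe was 0.243. The threshold of 0.1 and 1 probe a gene also gave 0. The median of the Wnt target probes, 0.26, stayed above 0 in all settings, with 0.089 when 64 was added before log2 and 0.46 when 4 was added, 0.17 to 0.37 when 1 sample was left out, 0.26 with the replicate block, and 0.71 with log2 taken of the ratios as deposited, where the median of all probes shifted by 0.12. Relative to all probes it was then 0.61, against 0.28 as reported. The number of probes at an unadjusted p under 0.05, a count added after the data were seen, was 6 and became 2 with dim probes left out, where 6 were tested, and 2 without the 3 samples that stood apart, where 5 samples are left. It was 4 to 6 with 1 sample left out and 5 with the replicate block, which changed no call.

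Signs turned in 8 of the 18 probes in at least 1 setting. Array medians alone and the deposited ratios also raised the median of all probes, by 0.061 and 0.12. The cause of the turned signs was not tested under any setting. With array medians only, Nkd1 1417278_a_at was 0.10, Sox9 1433889_at -0.0164, Myc 0.0738 and Rnf43 0.0533. On the deposited ratios these were 0.34, -0.0493, 0.0758 and 0.0576, and Nkd1 1429506_at was 0.0389. With array weights the 2 Nkd1 probes were 0.21 and 0.0103. Axin2 1421341_at was -0.0363 with 64 added. Without the 3 samples Nkd1 1429506_at was 0.0547, Rnf43 0.18 and Sp5 -0.0208. With 1 sample left out, Axin2 1436845_at ranged from -0.16 to 1.01, Axin2 1421341_at from -0.22 to 0.45, Nkd1 1417278_a_at from -0.40 to 0.37, Nkd1 1429506_at from -0.28 to 0.27 and Sox9 1433889_at from -0.0758 to 0.0852. The value of 1.01 for Axin2 was that without vehicle sample 3. Of the 18 probes 12 are dim, which limits what these arrays can show of them.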
